A study of Mus musculus with 12 samples.

Results

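The genes described here are 10 genes of the MHC class II antigen presentation pathway: H2-Aa, H2-Ab1, H2-Eb1, Cd74, Ciita, H2-DMa, H2-DMb1, H2-DMb2, H2-Oa and H2-Ob. They were listed by name, with no threshold on their values, and are 10 of the 12199 genes in the deposited RNA-seq table. All 10 exceeded the filter on low counts, and they are 10 of the 12175 genes tested. RNA was taken from whole bone marrow (BM) of C57BL/6 mice of 4 genotypes: wild type (WT), heterozygous floxed Dnmt3a with MxCre and Flt3 ITD/+ (DF), Tet2+/- with Flt3 ITD/+ (TF), and all 3 mutations together (TFD). Flt3 ITD is an internal tandem duplication that makes the receptor tyrosine kinase Flt3 signal without its ligand, whereas Dnmt3a and Tet2 add and oxidize DNA methylation. All mice, WT included, received poly(I:C), an inducer of interferon and so of MxCre, at 8 to 10 weeks of age and were analysed 8 to 9 weeks later. MxCre acts in blood cells and in other interferon-responsive cells, the Flt3 and Tet2 alleles are in all cells, and WT and TF carry no Cre by the labels. There were 3 libraries each of WT, DF and TF, and 2 of TFD. TFD replicate 3 was not analysed here.

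MHC class II molecules are heterodimers on antigen-presenting cells, mainly B cells, dendritic cells and macrophages, which show peptides from endosomes to CD4+ T cells. H2-Aa and H2-Ab1 encode the alpha and beta chains of I-A, and H2-Eb1 encodes the beta chain of I-E, which lacks its alpha chain in C57BL/6 mice. Cd74, the invariant chain, occupies the groove of new class II molecules and guides them to endosomes. There H2-DM, built from H2-DMa and an H2-DMb chain, exchanges the remnant of Cd74 for peptide, and H2-O, built from H2-Oa and H2-Ob, restrains H2-DM, chiefly in B cells. Ciita is the coactivator on which transcription of the pathway depends. It binds no DNA itself but sits on factors of the RFX and NF-Y families at the X and Y boxes of these promoters.

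Library totals ranged from 8274153 to 15900904 reads over the deposited genes, with 12155 to 12195 genes detected. Levels are CPM (counts scaled to a common library size) on library sizes scaled by TMM factors, and per length they are CPM per kb of the deposited gene length. Among the targeted genes, Flt3 had 20.8 to 30.1 CPM in WT and 33.0 to 130 CPM in the mutant libraries. Dnmt3a had 30.9 to 57.8 CPM in WT, 38.0 to 46.4 CPM in DF, 57.7 to 86.2 CPM in TF and 54.4 to 58.6 CPM in TFD. It was not called in DF or TFD versus WT (adjusted p = 0.578 and 0.382), was called higher in TF (adjusted p = 0.0444), and every DF library was below every TF library (adjusted p = 0.0551). Tet2 had 148 to 169 CPM in WT, 196 to 246 CPM in DF, 136 to 205 CPM in TF and 163 to 209 CPM in TFD, and it was called higher in DF versus WT (log2 fold change of 0.49, adjusted p = 0.0261) and not called in TF or TFD (adjusted p = 0.330 and 0.318). The libraries WT replicate 3, TF replicate 3 and TFD replicate 2 had 30976 to 42152 Xist reads and the others 18 to 538, so that these libraries were spread unevenly over the genotypes, with none in DF. The labels do not say that libraries of a genotype came from separate mice, so p-values measure the spread between these libraries.

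Promoter sequences were searched for letters of the X and Y boxes. Promoter windows (RefSeq, GRCm38.p6, the assembly called mm10), each with 250 bases before and 50 bases after a transcription start, were read for 7 of the 10 genes, all but H2-Ab1, Cd74 and Ciita. The letters ACNGATG, found at the end of the X box, and ATTGG, the reverse complement of the CCAAT core of the Y box, were searched on both strands. Stretches of 60 bases on chromosome 17 are shown around the ATTGG upstream of the start, 5′ to 3′ on the strand of the gene, with matches to either run of letters in capitals. They stand for a presentation chain of each subunit, for H2-DM and for H2-O. The stretches are chr17:34305763-34305822 on the plus strand for H2-Eb1, chr17:34287857-34287916 on the minus strand for H2-Aa, chr17:34145114-34145173 on the plus strand for H2-DMb2 and chr17:34238803-34238862 on the plus strand for H2-Ob.
H2-Eb1: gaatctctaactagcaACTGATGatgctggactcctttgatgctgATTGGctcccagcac
H2-Aa: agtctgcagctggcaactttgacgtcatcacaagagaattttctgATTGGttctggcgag
H2-DMb2: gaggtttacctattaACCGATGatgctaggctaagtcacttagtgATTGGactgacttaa
H2-Ob: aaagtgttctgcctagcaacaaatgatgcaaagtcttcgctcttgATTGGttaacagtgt

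ATTGG or its reverse complement occurred in a window of 7 of the 7 genes and in 37.4% of all 32851 windows. ACNGATG occurred in 5 of the 7 genes and in 9.85% of windows. ACNGATG followed within 40 bases by ATTGG on the same strand occurred in H2-Eb1, H2-DMb1 and H2-DMb2, and in 0.298% of windows. In these 3 genes 22 or 23 bases lay between both runs of letters. The 60 bases around the ATTGG of H2-DMb1 were identical to those of H2-DMb2 at 51 positions. A match describes letters and not binding, and the absence of ACNGATG from the stretches of H2-Aa and H2-Ob says only that these letters are not there.

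The comparisons with WT asked how class II transcripts differed in BM that carries the mutations in pairs or all together. The classical chains H2-Aa, H2-Ab1 and H2-Eb1 were about 4 times as abundant in TF as in WT, were between these levels in TFD, and did not differ from WT in DF beyond the spread. H2-DMa and H2-DMb1 were higher than in WT in all 3 mutant genotypes, and H2-DMb2 and H2-Ob were lower in all 3. The plot of CPM by library shows these 3 patterns. Since the 3 comparisons share the WT libraries, their values are given side by side and were not set against each other.

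**Figure D1:**
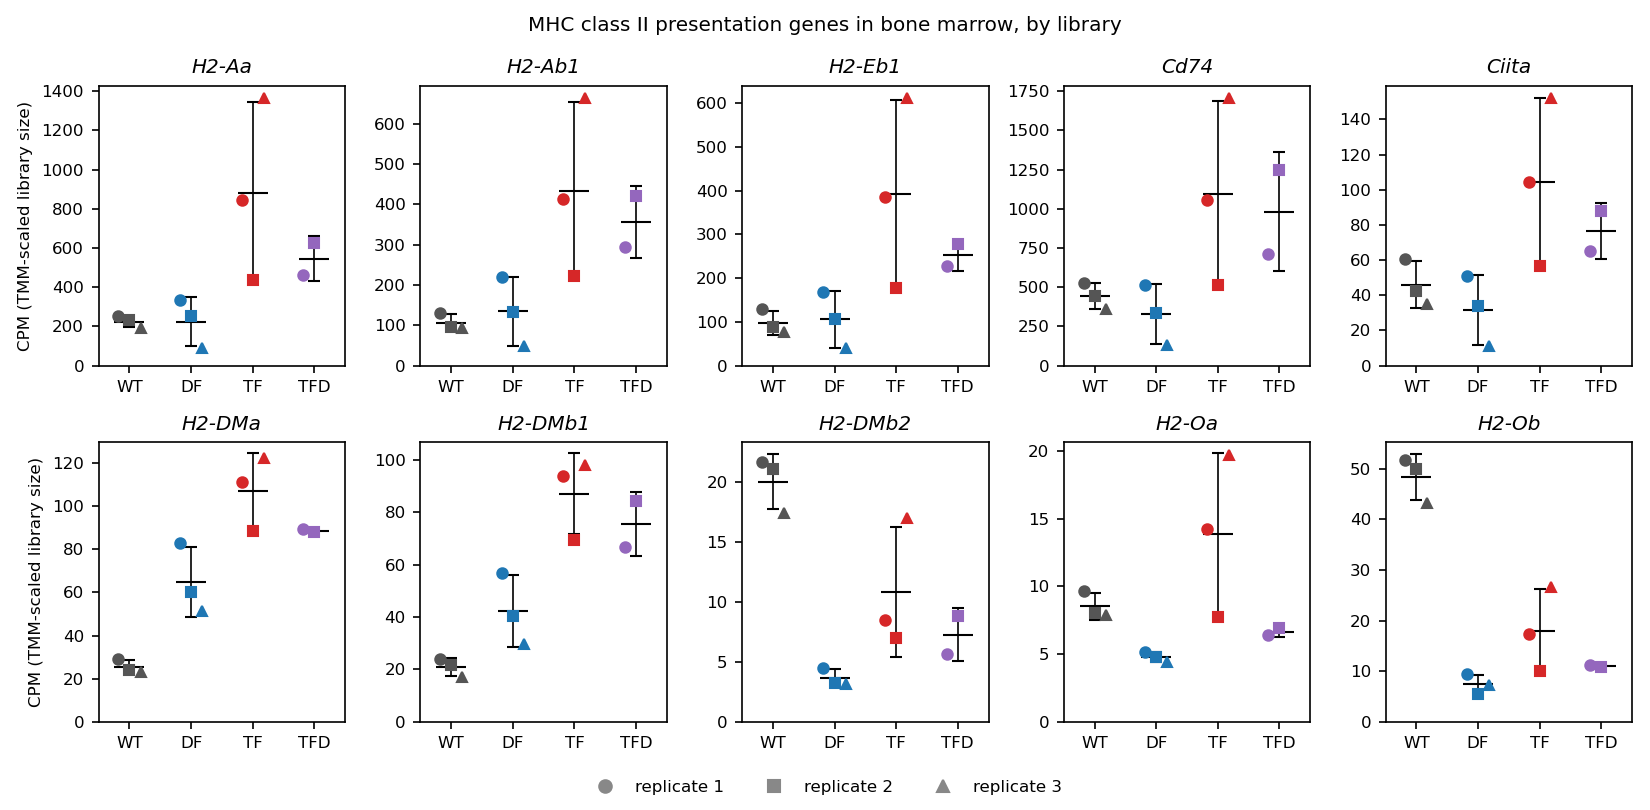
Level of each of the 10 genes in CPM (vertical axes, starting at 0, each gene on its own scale) in every library of WT, DF, TF and TFD. Symbols give the replicate number, and black bars show the mean and SD (n = 3, 3, 3 and 2). TF replicate 3 is the highest TF library for 10 of 10 genes and DF replicate 3 the lowest DF library for 9 of 10, whereas H2-DMb2 and H2-Ob are highest in WT.

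H2-Aa, the alpha chain of I-A (chr17:34282751-34287771), had 251, 231 and 193 CPM in WT and 336, 251 and 87.9 CPM in DF. It had 846, 437 and 1363 CPM in TF and 465 and 628 CPM in TFD. Every TF and TFD library lay above every WT and DF library, and the DF libraries lay on both sides of WT. The log2 fold change in TF was 1.97 ± 0.43 (SE, adjusted p = 0.00409). In TFD it was 1.28 ± 0.46 (adjusted p = 0.0588) and in DF 0.00 ± 0.42 (adjusted p = 0.998), so that only TF passed the threshold of 0.05.

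H2-Ab1, the beta chain of I-A (chr17:34263227-34269418), had 131, 95.2 and 93.4 CPM in WT and 220, 134 and 49.6 CPM in DF. It had 414, 223 and 663 CPM in TF and 293 and 419 CPM in TFD. As for its partner, the TF and TFD libraries were all above WT. H2-Ab1 rose 4.06-fold in TF (adjusted p = 0.0046). It rose 3.34-fold in TFD (adjusted p = 0.0189), while its log2 fold change in DF was 0.34 ± 0.44 (adjusted p = 0.569). The TFD call was lost without WT replicate 2, WT replicate 3 or TFD replicate 2, at adjusted p of 0.0636 to 0.0994.

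H2-Eb1, the I-E beta chain (chr17:34305867-34316674), had 129, 88.1 and 76.2 CPM in WT and 169, 108 and 39.99 CPM in DF. It had 386, 178 and 611 CPM in TF and 227 and 277 CPM in TFD. The same order of libraries returned: DF replicate 3 was lowest of all 11 and TF replicate 3 highest. The log2 fold change in TF was 2.001 ± 0.47 (adjusted p = 0.00578). TFD, at 1.37 ± 0.50 (adjusted p = 0.0609), and DF, at 0.12 ± 0.46 (adjusted p = 0.858), were not called.

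Cd74 on chromosome 18 (60803849 to 60812652) is the most abundant of the 10 genes per length in WT, DF and TFD. Its level was 314 ± 59.1 CPM per kb in WT (SD, n = 3), against 210 ± 27.8 CPM per kb for H2-Aa. Cd74 had 530, 442 and 362 CPM in WT, 517, 333 and 132 CPM in DF, 1055, 516 and 1704 CPM in TF and 712 and 1250 CPM in TFD. TF replicate 2 lay within the WT range and the other TF libraries above it. Cd74 rose 2.46-fold in TF (adjusted p = 0.0425). This call was not made by DESeq2 (adjusted p = 0.0533), with the replicate number as a block (adjusted p = 0.0573) or by limma (adjusted p = 0.068 at either pseudocount). It was also lost without any 1 of 6 libraries (WT replicate 1, 2 or 3, DF replicate 2, TF replicate 1 or TF replicate 3), at adjusted p of up to 0.149. In TFD the log2 fold change of Cd74 was 1.14 ± 0.49 (adjusted p = 0.108), and in DF -0.44 ± 0.45 (adjusted p = 0.461).

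Ciita, the coactivator (chr16:10480072-10527640), had the lowest level per length of the 10 genes in WT, at 7.68 ± 2.20 CPM per kb. It had 60.7, 42.3 and 35.1 CPM in WT, 50.8, 33.7 and 10.99 CPM in DF, 104, 56.6 and 152 CPM in TF and 65.4 and 88.0 CPM in TFD. TF replicate 2 was below WT replicate 1, so the groups overlapped. No difference from WT passed the threshold. TF came nearest, with a log2 fold change of 1.18 ± 0.43 (adjusted p = 0.0512), against 0.73 ± 0.47 for TFD (adjusted p = 0.283) and -0.52 ± 0.44 for DF (adjusted p = 0.365).

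H2-DMa, the alpha chain of the peptide editor (chr17:34122832-34139101), had 28.9, 24.3 and 23.1 CPM in WT and 82.7, 60.04 and 51.2 CPM in DF. It had 111, 88.3 and 122 CPM in TF and 89.2 and 87.8 CPM in TFD. WT, DF and TF did not overlap, in that order, and the TFD libraries lay beside the lowest TF library. H2-DMa rose 4.21-fold in TF (adjusted p = 7.28e-06), 3.47-fold in TFD (adjusted p = 4.18e-05) as well as 2.54-fold in DF (adjusted p = 0.000114).

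H2-DMb1, a beta chain of H2-DM (chr17:34153191-34160229), had 24.1, 21.8 and 17.2 CPM in WT and 56.99, 40.4 and 29.6 CPM in DF. It had 93.7, 69.5 and 98.0 CPM in TF and 66.8 and 84.1 CPM in TFD. As for H2-DMa, WT lay below DF and DF below TF with no overlap. It rose 4.14-fold in TF (adjusted p = 3.99e-05), 3.59-fold in TFD (adjusted p = 0.000179) as well as 2.02-fold in DF (adjusted p = 0.00374). The calls of H2-DMa and H2-DMb1 against WT were kept with each library left out.

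H2-DMb2, the second H2-DM beta chain and the neighbour of H2-DMb1 (chr17:34145416-34151095), had 21.6, 21.0 and 17.4 CPM in WT but 4.52, 3.22 and 3.17 CPM in DF. It had 8.48, 6.95 and 16.97 CPM in TF and 5.69 and 8.82 CPM in TFD. Every mutant library was below every WT library, with TF replicate 3 just under WT replicate 3. H2-DMb2 fell by 2.45 on the log2 scale in DF (adjusted p = 9.75e-05). In TFD it fell by 1.47 (adjusted p = 0.00653), and in TF it fell by 0.89 (adjusted p = 0.0295). The TF call was lost without WT replicate 1, WT replicate 2, TF replicate 1 or TF replicate 2, at adjusted p of 0.0756 to 0.111, and without TF replicate 3 it fell by 1.37. The TFD call was lost without TFD replicate 1 (adjusted p = 0.0723).

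H2-Oa, the alpha chain of H2-O (chr17:34092379-34095234), had 9.69, 8.04 and 7.88 CPM in WT and 5.16, 4.76 and 4.45 CPM in DF. It had 14.2, 7.77 and 19.7 CPM in TF and 6.38 and 6.95 CPM in TFD. The DF libraries were the lowest 3 of the 11. H2-Oa fell by 0.83 in DF (adjusted p = 0.0328), and this call was lost without any 1 of 5 libraries (WT replicate 1 or 2, or any DF replicate), at adjusted p of up to 0.0854. TF differed from WT by a log2 fold change of 0.70 ± 0.26 (adjusted p = 0.0575) and TFD by -0.36 ± 0.31 (adjusted p = 0.414), and neither was called.

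H2-Ob, the beta chain of H2-O (chr17:34238905-34245908), had 51.8, 50 and 43.2 CPM in WT and 9.45, 5.53 and 7.23 CPM in DF. It had 17.4, 9.98 and 26.6 CPM in TF and 11.2 and 10.8 CPM in TFD. No mutant library came near WT. H2-Ob fell 6.55-fold in DF (adjusted p = 3.11e-05), 4.39-fold in TFD (adjusted p = 0.000501) and 2.69-fold in TF (adjusted p = 0.00165), and each call was kept with any 1 library left out.

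In DF versus WT, 2 of the 10 genes were called higher and 3 lower, while 21.0% of all genes tested were called higher and 16.6% lower, and the median log2 fold change was -0.22 over the 10 genes and 0.05 over all genes. In TF versus WT, 6 were called higher and 2 lower, beside 19.0% and 15.6% of all genes, with a median of 1.63 against 0.02. In TFD versus WT, 3 were called higher and 2 lower, beside 14.7% and 11.6%, with a median of 1.21 against 0.01. A fit of only TFD and WT called 9 of the 10 genes in TFD, all but H2-Oa, with 7 higher and 2 lower, beside 12.2% of all genes higher and 10.9% lower in that fit.

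**Figure D2:**
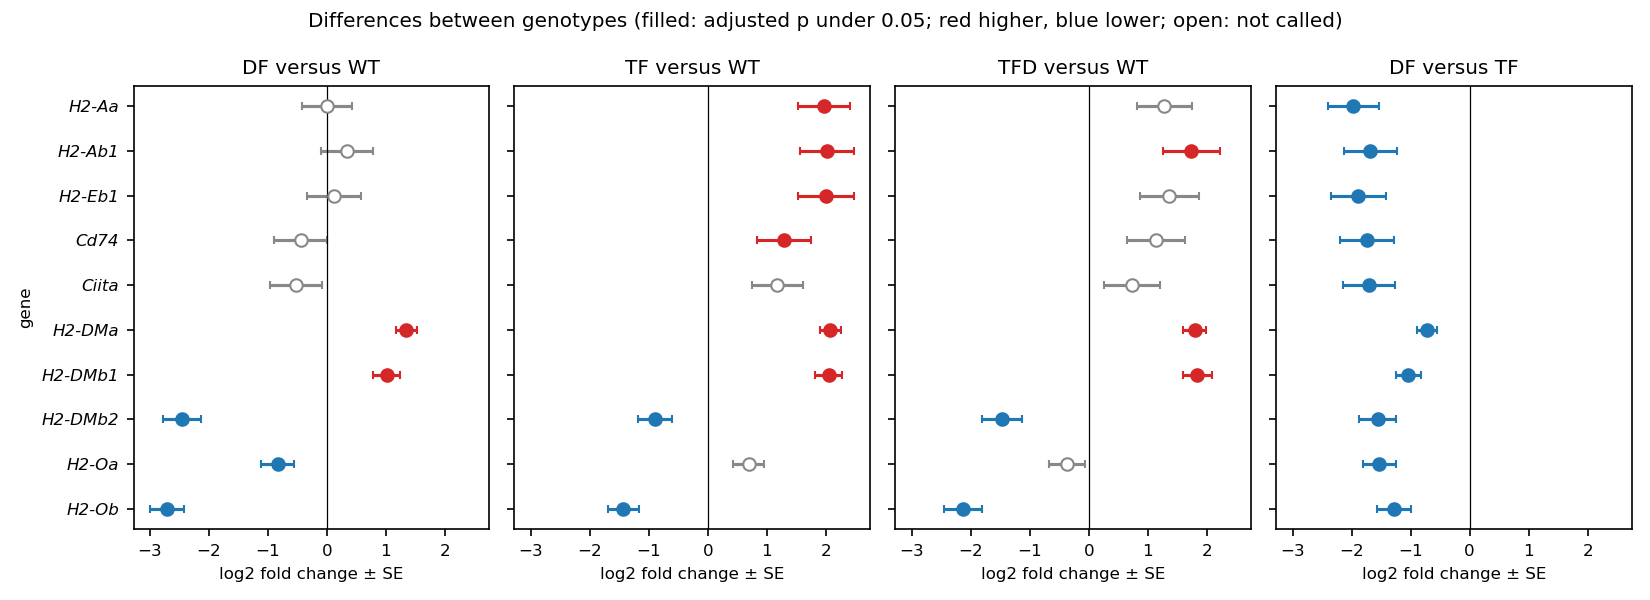
Log2 fold change with SE (horizontal axis, common to the panels) for the 10 genes from edgeR, with panels for each mutant genotype against WT and for DF versus TF. Filled points passed an adjusted p of 0.05 (red higher, blue lower), and open points did not. H2-DMb2 and H2-Ob lie left of 0 in all 4 panels, and all 10 genes are filled and left of 0 in DF versus TF.

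DF and TF share the Flt3 allele, and their comparison set Dnmt3a loss against Tet2 loss. By the labels DF also carries MxCre and TF does not, and no DF library was high in Xist while TF replicate 3 was, so that the part of the regulator and that of MxCre cannot be told apart. All 10 genes were lower in DF than in TF, with a median log2 fold change of -1.62 over the 10 genes and 0.02 over all genes. At this threshold 4.27% of all genes tested were called lower and 1.67% higher. H2-Aa was 3.92-fold lower (adjusted p = 0.0212), H2-Eb1 3.69-fold (adjusted p = 0.0341), Cd74 3.33-fold (adjusted p = 0.0445), Ciita 3.25-fold (adjusted p = 0.0407) and H2-Ab1 3.21-fold (adjusted p = 0.0452). The smaller differences were those of H2-DMb1, 2.05-fold lower (adjusted p = 0.0156), and H2-DMa, 1.66-fold lower (adjusted p = 0.0264). H2-DMb2 was 2.95-fold (adjusted p = 0.015), H2-Oa 2.88-fold (adjusted p = 0.00789) and H2-Ob 2.43-fold lower (adjusted p = 0.0237). For 9 of the 10 genes every DF library was below every TF library, as for 12.1% of all genes tested. The exception was Cd74, for which DF replicate 1, at 517 CPM, and TF replicate 2, at 516 CPM, met.

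These calls rested on single libraries, and DF replicate 3 and TF replicate 3 stood at opposite ends. H2-Aa, for example, differed 3.82-fold between DF replicates 1 and 3 and 3.12-fold between TF replicates 3 and 2. Only H2-Oa was called without DF replicate 2 or without DF replicate 3. Without TF replicate 3, H2-DMb1, H2-DMb2 and H2-Oa were called, without TF replicate 1 the count was 5, without WT replicate 2, which enters the estimate of spread, it was 6, and a fit of only DF and TF called H2-DMb1, H2-DMb2 and H2-Oa, beside 3.47% of all genes lower. Over the fits that left out 1 library, 1.08% to 5.78% of all genes were called lower, with 1.08% without DF replicate 2 and 1.67% without DF replicate 3. With a term for the libraries high in Xist, of which DF has none, 6 were called, all but H2-Ab1, H2-Eb1, Cd74 and Ciita, beside 3.03% of all genes. With the replicate number as a block 7 were called, all but H2-Ab1, Cd74 and Ciita, beside 3.71% of all genes. H2-Oa kept its call in 11 of 11 fits that each left out 1 library, and each of these fits put all 10 genes lower in DF.

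In DF versus TFD, none of the 10 genes was called by edgeR, like 0.00% of all genes, although 8 had an unadjusted p under 0.05, as had 1727 of the 12175 genes (14.2%). The log2 fold changes of the 10 genes were all negative, from -1.58 ± 0.49 for Cd74 to -0.45 ± 0.19 for H2-DMa, and of the 10 DESeq2 called H2-DMb1 lower (adjusted p = 0.031), beside 1.27% of all genes. In TF versus TFD, none was called by edgeR or DESeq2, beside 0.0164% of all genes by edgeR and 1.10% by DESeq2, and 2 had an unadjusted p under 0.05, as had 8.77% of all genes. H2-Oa came nearest, 2.08-fold higher in TF (adjusted p = 0.279), and it was called without TF replicate 2 (adjusted p = 0.0368).

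The order of libraries within WT, DF and TF was nearly the same for all 10 genes. WT replicate 1 was highest and WT replicate 3 lowest for 10 of 10 genes, DF replicate 1 was highest for 10 of 10, and TF replicate 3 was highest and TF replicate 2 lowest for 10 of 10. DF replicate 3 was lowest for 9 and DF replicate 2 for H2-Ob. Of the TFD libraries, replicate 2 was higher for 8 genes and replicate 1 for H2-DMa and H2-Ob. The spread within DF was 4.62-fold for Ciita and 3.91-fold for Cd74 from lowest to highest library, and only 1.16-fold for H2-Oa and 1.43-fold for H2-DMb2.

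The balance between the subunits of H2-DM and H2-O set the WT libraries apart from the mutant libraries, as the genes' own levels against WT already imply. Per length, H2-DMb2 made up 59.5%, 61.2% and 62.3% of H2-DMb transcripts in WT. It made up 11.5%, 11.5% and 14.9% in DF, 12.9%, 14.04% and 22.1% in TF and 12.2% and 14.6% in TFD. The 8 mutant libraries all lay below the WT libraries, with TF replicate 3 nearest to them. H2-DMb1 was 0.828 to 0.966 times as abundant as H2-Ob per length in WT, and 7.65 to 16.2 times as abundant in the mutant libraries. H2-DMa was 1.86 to 1.91 times as abundant as H2-Oa in WT and 3.92 to 10.1 times in the mutants. Within H2-O, H2-Ob was 2.10 to 2.44 times as abundant as H2-Oa in WT and 0.457 to 0.719 times in the mutants.

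**Figure D3:**
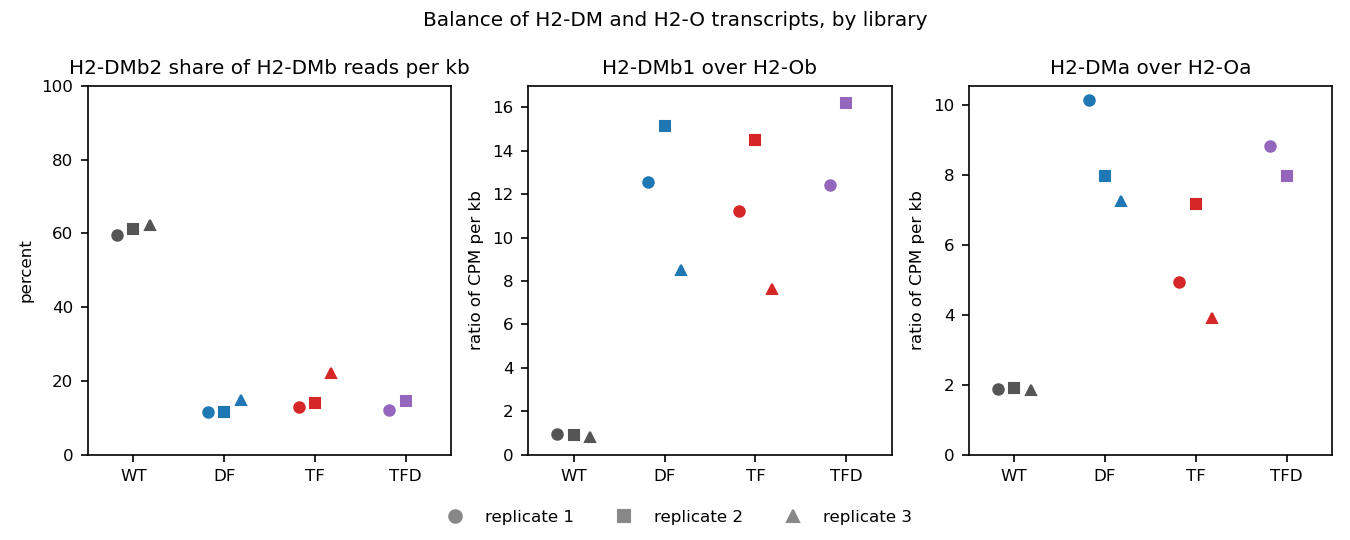
Share of H2-DMb2 in H2-DMb transcripts in percent (left), and the ratios of H2-DMb1 to H2-Ob (middle) and of H2-DMa to H2-Oa (right), all per kb of gene length, in every library. The WT libraries lie at 59.5% to 62.3% on the left and at or under 1.91 in the other panels, apart from all mutant libraries.

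Counting limits the H2-DMb values. The coding sequences of H2-DMb1 and H2-DMb2 (GENCODE M21) are 783 bases long each and identical at 95.9% of positions, with a longest identical run of 221 bases, and unique alignment drops reads that fit both. The deposited length of H2-DMb2, 786 bases, leaves out untranslated regions, while that of H2-DMb1 is 1284 bases. Both limits are the same in every library, and they bear on the size of the shares.

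Markers of the cells that express class II also differed between the genotypes. Of all genes, 21.0% were called higher and 16.6% lower in DF versus WT, 19.0% and 15.6% in TF, and 14.7% and 11.6% in TFD. In bulk BM, fewer cells of a type and less RNA per cell cannot be told apart. Of 15 B cell markers, all 15 were lower in DF and in TFD than in WT, and 14 in TF, with median log2 fold changes of -5.94 in DF, -5.28 in TFD and -3.83 in TF. Their summed level was 823 to 984 CPM in WT, 28.0 to 44.9 CPM in DF, 49.3 to 202 CPM in TF and 37.3 to 44.7 CPM in TFD, and the highest TF value belonged to TF replicate 3. Of this list, Pax5 and Rag1 had 0 reads in at least 1 DF library and in at least 1 TFD library. H2-Ob and H2-DMb2 were lower in the same comparisons, and the part of B cells in their values was not tested.

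Conventional dendritic cell markers had a summed level of 288 to 334 CPM in WT, 121 to 215 CPM in DF, 307 to 732 CPM in TF and 280 to 481 CPM in TFD, and none of the 10 was at 0 reads in any library. Against WT, 2 were higher and 3 lower in DF, 7 higher and 2 lower in TF, and 5 higher and 2 lower in TFD. The median log2 fold changes were -0.13, 1.93 and 1.14, and -1.54 in DF versus TF. In that comparison 7 were lower: Clec9a, Zbtb46, Cd209a, Itgax, Clec10a, Dpp4 and Irf4. Clec9a, a receptor of cross-presenting dendritic cells, had a log2 fold change of -2.67 (adjusted p = 0.00342) and Zbtb46, a transcription factor of the lineage, of -2.55 (adjusted p = 0.00483). The count was 3 without DF replicate 2, 4 without DF replicate 3 and 5 without TF replicate 3. Against WT, over the fits that left out 1 library, 1 to 4 were higher and 3 to 4 lower in DF, 5 to 7 higher and 1 to 2 lower in TF, and 3 to 5 higher and 1 to 3 lower in TFD. In DF versus TFD, none was called with all libraries, like 0.00% of all genes, but 5 were lower without TF replicate 3 and 3 without TFD replicate 1. The share of all genes called in these 2 fits is not given here, so these counts are not read as a result about the markers. TF replicate 3 had the highest sum and DF replicate 3 the lowest, as for the classical chains, and the part of these cells in the class II values was not tested.

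Plasmacytoid dendritic cell markers had 217 to 240 CPM in WT, 101 to 115 CPM in DF, 205 to 516 CPM in TF and 127 to 219 CPM in TFD in sum. In DF versus TF, 7 of 7 were lower (Siglech, Klk1, Cox6a2, Ccr9, Bst2, Runx2 and Tcf4), 4 without DF replicate 1, 2 without DF replicate 2, 3 without DF replicate 3 and 5 without TF replicate 3. Siglech, a surface lectin of these cells, had 35.5 to 42.3 CPM in WT, 0.0644 to 1.35 CPM in DF and 11.9 to 63.2 CPM in TF. Against WT, 5 markers were lower in DF, 2 higher and 1 lower in TF, and 3 lower in TFD, with medians of -4.42, -0.21 and -2.34, and -3.38 in DF versus TF. The TF counts, out of 7, stand beside 19.0% of all genes called higher and 15.6% lower. With single libraries left out, 1 to 3 were higher and 0 to 3 lower in TF versus WT. Klk1 and Cox6a2 had 0 reads in at least 1 DF library. The part of these cells was not tested either.

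**Figure D4:**
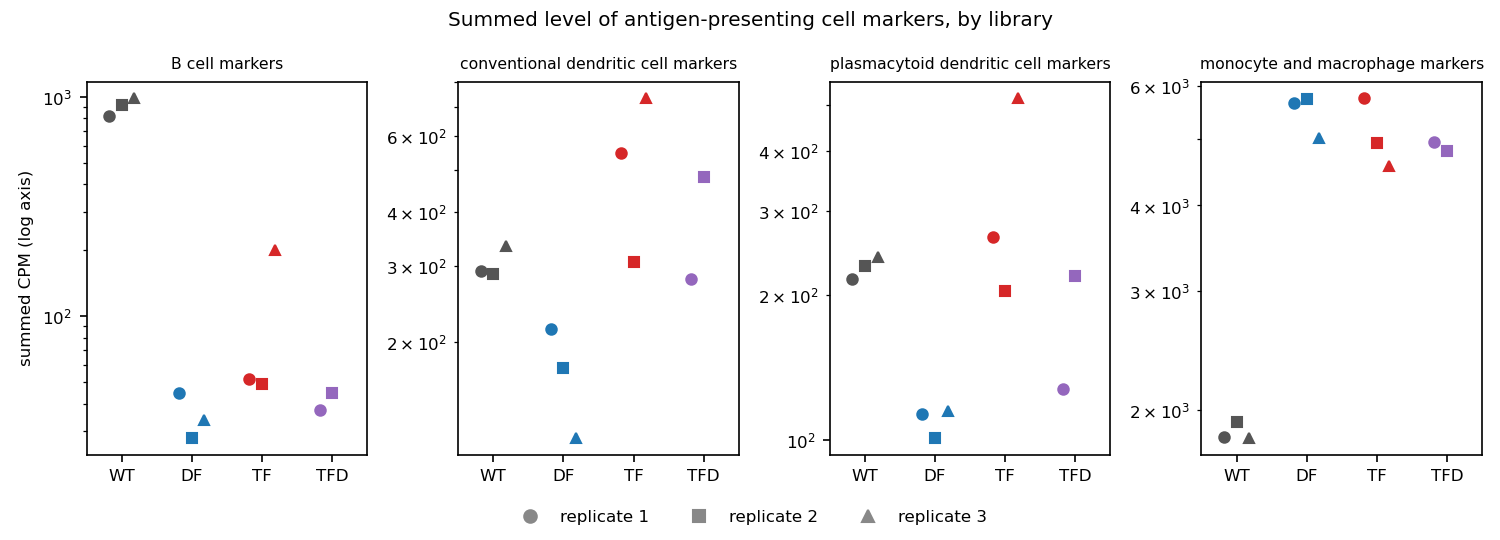
Summed CPM (log axes, each panel on its own scale) of the B cell, conventional dendritic cell, plasmacytoid dendritic cell and monocyte and macrophage marker lists in every library. B cell markers are highest in WT (823 to 984 CPM), monocyte markers are lowest in WT, and both dendritic cell sums are highest in TF replicate 3.

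Monocyte and macrophage markers summed to 1824 to 1923 CPM in WT, 5030 to 5739 CPM in DF, 4577 to 5744 CPM in TF and 4814 to 4964 CPM in TFD. Of 12 markers, 7 were higher and 4 lower in DF, 7 higher and 1 lower in TF, and 6 higher and 3 lower in TFD, with medians of 1.04, 0.98 and 0.77. The 1 lower marker in TF became 4 without TF replicate 3 and 0 without 6 other libraries in turn, and the 3 in TFD became 0 without WT replicate 3 or TFD replicate 2. DF versus TF differed in C1qa, C1qb and C1qc, the subunits of complement C1q made by macrophages, whose log2 fold changes were -1.99, -1.48 and -1.66 (adjusted p = 0.0187, 0.0225 and 0.02). These 3 calls were lost when any 1 DF library was left out. H2-DMa and H2-DMb1 were higher in the mutant genotypes as these sums were, and the part of monocytes was not tested. T cell markers were lower than in WT for 6 of 8 in DF, 2 in TF and 4 in TFD, erythroid markers for 6 of 6, 4 and 4, and of 8 neutrophil markers 2 were higher in DF, 2 lower in TF and 1 higher in TFD. Of all genes, 21.0% were called higher in DF, 15.6% lower in TF and 14.7% higher in TFD. The neutrophil counts, and that of T cell markers in TF, were thus not far from the shares of all genes. Without TF replicate 3, 5 T cell markers were lower in TF and 7 in TFD, while the TF count was 1 without any 1 WT library, TF replicate 1 or TF replicate 2, and the erythroid count in TF was 0 without WT replicate 3, TF replicate 1 or TF replicate 2. Over the fits that left out 1 library, the higher neutrophil markers numbered 1 to 3 in DF and 0 to 1 in TFD and the lower ones 1 to 3 in TF, and 4 were lower in TFD without TFD replicate 1, against 0 with all libraries. In DF versus TF, the T cell markers Cd4 and Cd5, the B cell markers Cd22 and Spib and the erythroid markers Alas2, Epor, Klf1 and Slc4a1 were lower, and the neutrophil marker Elane was higher. The T cell calls in DF versus TF were lost when any 1 DF library or TF replicate 3 was left out, both B cell calls without DF replicate 2 or 3 and that of Cd22 without DF replicate 1, and the neutrophil call without DF replicate 1 or 2 or TF replicate 3. At least 3 erythroid calls were made with each library left out. In DF versus TFD, 5 erythroid markers were lower without TF replicate 3, against 0 with all libraries. The share of all genes called in that fit is not given here.

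Of 14 genes that regulate class II transcription, the RFX and NF-Y subunits among them, 3 were higher and 5 lower in DF versus WT, 3 higher and 2 lower in TF, and 2 higher and 3 lower in TFD. Of all genes tested, 21.0%, 19.0% and 14.7% were called higher and 16.6%, 15.6% and 11.6% lower in these comparisons, so that the shares of higher regulators were close to those of all genes. Their median log2 fold changes were -0.10, 0.06 and -0.07. With single libraries left out, the lower genes numbered 2 to 5 in DF, 1 to 2 in TF and 0 to 3 in TFD. Irf8, an interferon regulatory factor of monocytes and dendritic cells, rose by 1.71 on the log2 scale in TF (adjusted p = 2.04e-06), 1.43 in TFD (adjusted p = 1.75e-05) as well as 1.31 in DF (adjusted p = 1.57e-05). Ifngr1, a chain of the interferon gamma receptor, rose by 0.79 in DF and 0.64 in both TF and TFD (adjusted p = 5.96e-05, 0.000336 and 0.000795). Jak1, a kinase that works at the same receptor, fell by 0.58 on the log2 scale in TF (adjusted p = 0.00307), and in both DF and TFD it fell by 0.50 (adjusted p = 0.00655 and 0.0173). The TFD call of Jak1 was lost without WT replicate 2 or either TFD library.

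In DF versus TF, Irf1, an interferon-induced factor that acts on Ciita, was called lower in DF, with a log2 fold change of -0.47 (adjusted p = 0.0343). The call of Irf1 was lost without WT replicate 2, without any DF replicate and without TF replicate 1 or 3.

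Of 11 genes of endosomal processing and class II turnover that were tested from a list of 13, 6 were higher and 2 lower in DF, 7 higher and 1 lower in TF, and 6 higher and 2 lower in TFD, with medians of 0.44, 0.58 and 0.48. With single libraries left out, the lower genes numbered 1 to 2 in TF and in TFD. Ctss, the protease cathepsin S that trims Cd74, had 194 to 216 CPM in WT, 375 to 488 CPM in DF, 458 to 559 CPM in TF and 415 to 476 CPM in TFD. The WT libraries were apart from all others. Ifi30, a thiol reductase that opens disulphides of antigens, rose by 1.74 on the log2 scale in TF (adjusted p = 0.000112), 1.64 in TFD (adjusted p = 0.000363) as well as 1.45 in DF (adjusted p = 0.000304). Ctse, cathepsin E, was the one gene of the list called in DF versus TF, with a log2 fold change of -1.97 (adjusted p = 0.0449), and TF replicate 3 had 288 CPM against 48.3 and 57.9 CPM in the other TF libraries. This call was lost when any 1 WT library, any 1 DF library or TF replicate 3 was left out.

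The costimulatory and coinhibitory ligands, which act beside class II at the T cell contact, were 1 higher and 4 lower of 7 in DF, 2 higher and 1 lower in TF and 0 higher and 2 lower in TFD, with medians of -0.80, -0.10 and -0.999. Of all genes, 21.0% were called higher and 16.6% lower in DF, 19.0% and 15.6% in TF, and 14.7% and 11.6% in TFD. The TF counts and the 1 higher in DF were not far from these shares. With single libraries left out, 0 to 1 were higher and 2 to 4 lower in DF, 1 to 2 higher and 1 to 3 lower in TF, and 0 to 1 higher and 1 to 3 lower in TFD. Cd274, which encodes PD-L1, was called lower in each genotype, at -0.96 on the log2 scale in TF, -1.12 in TFD and -1.17 in DF (adjusted p = 0.00234, 0.00271 and 0.000595). In DF versus TF, Cd83, which stabilizes class II and Cd86 on the cell surface, had a log2 fold change of -2.08 (adjusted p = 0.0249) and Cd40, a costimulatory receptor, of -0.82 (adjusted p = 0.0419), and both calls were lost when any 1 DF library or TF replicate 3 was left out.

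The pattern over libraries set the genes in groups. Likeness was measured as the root mean square difference of log2 CPM, each gene centred on its mean, over 11 libraries and among 11183 genes whose log2 CPM averaged 1 or more. These distances describe bulk libraries that differ in depth and in the levels of cell markers, and the part of cell composition in them was not tested. The gene nearest to H2-Ab1 was H2-Eb1 (0.16), followed by H2-Aa (0.20), and the nearest genes outside the 10 were Ddr1 (0.25), Tlr3 (0.28), Anpep (0.32), Rgag4 (0.40) and Ctnnd2 (0.40). The gene nearest to Ciita was Cd74 (0.18), then H2-Aa (0.31) and H2-Eb1 (0.33), and outside the 10 they were Arhgef10 (0.37), Slamf7 (0.43), Bend4 (0.43), Tlr3 (0.44) and Srgap3 (0.46). H2-DMa ranked 1088 and H2-DMb1 143 in likeness to Ciita, and H2-Ob ranked 10526. H2-Ob had other neighbours: Ppm1l (0.28), Sla2 (0.30), Zdhhc14 (0.31), Tmem64 (0.32) and Spire1 (0.33), with H2-DMb2 (0.32) at rank 5.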

How the data were processed

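BM RNA-seq of the 4 genotypes was analysed from the deposited table. The authors removed globin RNA, made stranded total RNA libraries, checked reads with FastQC and mapped them to mm10 with STAR. Uniquely mapped reads were assigned to refGene with featureCounts, and genes under the authors' threshold (CPM over 0.5 in more than 3 samples) had been dropped. Neither the tool versions nor the strand setting is given in the sources used here. The deposited values used for tests are raw counts. Deposited log2 CPM values, which edgeR returns from the counts with a prior count of 0.25 to within 5e-09, served for likeness only, and the other deposited column is gene length in bases.

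Counts were tested in R 4.3.3 with edgeR 4.0.16 (TMM factors, quasi-likelihood F test, a mean per genotype, genes over 0.5 CPM in more than 3 libraries). P-values were adjusted by Benjamini-Hochberg over the 12175 genes tested and called under 0.05. TMM factors ranged from 0.924 to 1.04. The study used DESeq2, which was an alternative here (1.42.0), with RLE factors, library totals, no filter, only the 2 groups compared, a replicate block, a covariate marking the libraries over 10000 Xist reads, limma 3.58.1 on log2(CPM + 1) and log2(CPM + 0.1), and each library left out. On data simulated for DF versus WT with 12175 genes, 77 of 100 genes changed by 1 and 95 of 100 changed by 2 on the log2 scale were recovered, with 10 false calls. Python 3.11.15 was used with pandas 2.3.3, numpy 2.4.6, matplotlib 3.10.9 and, for alignment of sequences, Biopython 1.88. Promoter stretches of H2-DMb1 and H2-Oa overlap an annotated exon and are not shown.

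The 10 genes, the 10 lists and the rules were chosen with earlier results of these data known. Named beside the 10 genes are genes called in DF versus TF from each list, otherwise 2 with the largest change in a list, the 5 genes most like H2-Ab1, Ciita and H2-Ob, and the targeted genes. Irf8, Ifngr1, Jak1, Ctss, Ifi30, Cd274, Pax5 and Rag1 were named after their values were seen. Some genes that this rule would name are not reported here.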

Additional observations from a re-analysis of the deposited data

How the results depend on the processing

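The number of the 10 genes called kept within 1.5 times its value under the alternatives, with these exceptions. In DF versus TF, where all 10 were called, a fit of only these 2 groups called 3 and a term for Xist libraries called 6. In TFD versus WT, where 5 were called, a fit of only these 2 groups called 9. In DF versus TFD, where 0 were called, DESeq2 called 1. When single libraries were left out, the count in DF versus TF ranged from 1 to 10 and that in TF versus TFD from 0 to 1. The labels' replicate numbers did not pair the libraries (correlations of same-numbered deviations from -0.325 to 0.277), and with the replicate block 7 of the 10 genes were called in DF versus TF, 7 in TF versus WT and 5 in TFD versus WT.

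Over 60 log2 fold changes and 1200 alternatives, 1086 kept their direction and side of the threshold, 77 fell short of it, 18 came to pass it and 19 changed sign, none of them among the 28 called. H2-Aa in DF versus WT, at 0.00, was -0.046 with DESeq2, -0.045 with RLE factors, -0.071 with library totals, -0.031 with only the 2 groups, -0.030 with the replicate block and -0.20 with limma at either pseudocount, and H2-Eb1 was -0.077 and -0.081 with limma at pseudocounts of 1 and 0.1. With each library left out, H2-Aa ranged from -0.42 to 0.35, H2-Ab1 from -0.23 to 0.70 and H2-Eb1 from -0.42 to 0.47 in DF versus WT, and H2-Ab1 ranged from -0.16 to 0.60 and Cd74 from -0.32 to 0.60 in TF versus TFD. H2-Oa in DF versus WT was not called with a term for Xist libraries (adjusted p = 0.0545). The cause was not tested. The spread between 2 or 3 libraries, more than read depth, limits the abundant genes, while H2-DMb2 rests on 32 to 57 reads in DF and H2-Oa on 45 to 74.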

Other observations

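The class II genes lie on chromosome 17 among genes of the class I pathway. Between H2-Oa and Btnl2 the table holds 15 genes, 8 of them described above. Of the other 7, Psmb8 and Psmb9, subunits of the immunoproteasome, and Tap1 and Tap2, the peptide transporter of the class I pathway, were higher than in WT in each mutant genotype. Psmb8 rose by 1.03 on the log2 scale in TF (adjusted p = 2.5e-05), 0.87 in DF (adjusted p = 6.3e-05) and 0.84 in TFD (adjusted p = 0.00026). H2-Eb2, a class II beta gene beside H2-Eb1, was called lower, at -3.25 on the log2 scale in DF (adjusted p = 0.00171). It was at -2.59 in TFD (adjusted p = 0.0148) and -1.52 in TF (adjusted p = 0.0488). Levels of H2-Eb2 were low, at 4.68 to 9.28 CPM in WT and 0.396 to 0.794 CPM in DF. They were 0.727 to 4.925 CPM in TF and 1.001 to 1.069 CPM in TFD. The TF range thus overlapped that of WT, and the TF call lay close to the threshold of 0.05. Fits with single libraries left out are not given here for H2-Eb2. Brd2, which lies between H2-Oa and H2-DMa, was not called in any comparison, with log2 fold changes of -0.04 in DF, -0.02 in TF and 0.04 in TFD, and Btnl2 was not called either. In DF versus TF, Tap1 was the gene of these 7 that was called, with a log2 fold change of -0.61 (adjusted p = 0.00789). Neighbours in this region thus rose, fell or were not called within the same libraries, and these genes were chosen after the values of the class II genes had been seen.

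The level of each gene relative to Ciita was also compared, a ratio chosen after the values were seen. For 5 of the other 9 genes (H2-Aa, H2-Ab1, H2-Eb1, H2-DMa and H2-DMb1) the ratio was lower in every WT library than in every mutant library, as for 0.682% of all genes. For H2-DMb2 and H2-Ob it was higher in every WT library, as for 2.36% of all genes. Cd74 and H2-Oa overlapped. Ciita itself ranged from 10.99 CPM in DF replicate 3 to 152 CPM in TF replicate 3 over the mutant libraries. A gene that does not vary with Ciita can thus hardly separate in this ratio. The shares of all genes are low by construction for this reason, and no conclusion is drawn from them.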
